A study of Mus musculus with 6 samples.

Results

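Macrophage genes were examined in cultures of primary mouse embryonic fibroblasts. The set was chosen by name: every array probe whose target name is 1 of 48 macrophage and leukocyte gene names, which came to 79 of the 45281 probes on the array and, after older names were updated, to 46 genes. Of these genes, 39 are known mainly from macrophages or other leukocytes and are called leukocyte-restricted here; the other 7 (Lgals3, Cyba, Cd14, Cd68, Gpnmb, Ctss and Mrc1) are known from fibroblasts or further non-leukocyte cells too and are called shared. The tested cultures came from 3 Asciz-/- (KO) embryos and the controls from 3 Asciz+/+ (WT) embryos, all on the C57BL/6 background, harvested at embryonic day 12.5 and grown in serum-containing medium. Each culture was passaged a single time before total RNA was taken, and 1 bead array was hybridised per culture. Asciz is the older name of Atmin, a zinc-finger transcription factor; the sources used here do not say which part of the gene the knockout removes, or whether KO and WT embryos were littermates.

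Macrophages are phagocytes that settle in embryonic tissues early, from the yolk sac and later the fetal liver, and a minced embryo carries some of them into a fibroblast culture. They depend on the receptor CSF1R and the transcription factor PU.1, engulf debris, and express lysozyme, the 3 chains of complement C1q and Fc receptor adaptors at high levels. In RNA from a whole culture, fewer macrophages, less RNA per macrophage and a change in other cells that express the same genes cannot be told apart.

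The arrays were of like depth: 17580 to 18794 probes were detected on the KO arrays and 18174 to 18461 on the WT arrays at a detection p under 0.05. Atmin stood at a normalized log2 intensity of 6.79 in KO and 8.78 in WT cultures. The fibroblast identity of the cultures was borne out by 17 of 18 fibroblast markers detected on all 6 arrays; 17 of the 18 were tested, with a median difference of -0.04, 9 of them below 0 and 0 called in limma's fit. In WT replicate 1 all 4 Xist probes were detected and no Eif2s3y probe was, an XX pattern by these genes. The other 5 cultures showed no Xist. For Ddx3y, another Y-linked gene, 1 of 3 probes was detected on every array, WT replicate 1 included. Not all sex-linked genes read here thus gave that pattern. KO replicate 3 was the array least like the rest (mean correlation across genes 0.979, against 0.985 to 0.989 for the others). The calls and class medians are therefore also given without those 2 arrays. Nothing in the labels names a processing batch.

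Fewer macrophage genes could be detected in the KO cultures. Of the 39 leukocyte-restricted genes, 12, 12 and 13 were detected on KO replicates 1, 2 and 3, against 18, 24 and 19 on WT replicates 1, 2 and 3. The groups did not overlap, and WT replicate 2 had the most. Counted by probe over the whole set, 20, 22 and 25 of 79 were detected on the KO arrays, against 29, 41 and 31 on the WT arrays. These are 25.3% to 31.6% of the set's probes in KO and 36.7% to 51.9% in WT cultures, whereas the share of all probes on the array that were detected was 38.8% to 41.5% in KO and 40.1% to 40.8% in WT cultures. Of the 79 probes, 21 were detected on more WT than KO arrays and 1 on more KO than WT arrays. The shared genes gave no such gap, with 5, 6 and 5 of 7 detected in KO and 5, 7 and 6 in WT cultures. At a stricter detection p of 0.01 the leukocyte-restricted genes numbered 8, 8 and 10 in KO, against 11, 16 and 14 in WT cultures. KO replicate 3 and WT replicate 1 then lay close together, at 10 and 11. Over the whole array, probes detected at that level numbered 15747, 15502 and 16134 in KO, against 16204, 15619 and 16563 in WT cultures.

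**Figure D1:**
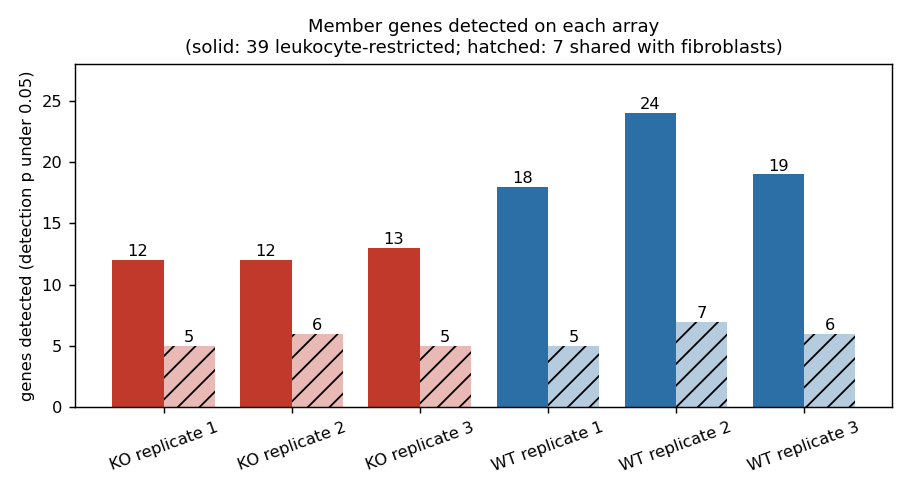
Number of member genes with at least 1 probe detected (detection p under 0.05) on each of the 3 KO arrays (red, left) and 3 WT arrays (blue, right), with solid bars for the 39 leukocyte-restricted genes and hatched bars for the 7 shared genes. The solid bars stand at 12 to 13 in KO and 18 to 24 in WT cultures, while the hatched bars stand at 5 to 6 and 5 to 7.

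Of the 46 genes, 23 were detected well enough to be tested (a probe detected on at least 3 of the 6 arrays): 17 leukocyte-restricted and 6 shared. In limma's fit over all 10700 tested genes none of the 23 passed an adjusted p of 0.05, where 0.0467% of all genes did (0.0187% lower in KO), or 0.0439% of single probes. The smallest adjusted p of a member was 0.332 (Trem2). At an unadjusted p under 0.05 there were 11 members lower and 0 higher in KO cultures, where 4.08% of all genes were lower and 7.98% differed in either direction at that level. All 3 KO values lay below all 3 WT values for 10 of the 17 leukocyte-restricted genes and 0 of the 6 shared genes, against 7.83% of all genes. The opposite order held for 1 leukocyte-restricted and 1 shared gene, against 6.7% of all genes. The leukocyte-restricted genes had a median log2 difference (KO minus WT) of -0.76 with 14 of 17 below 0, and the shared genes a median of -0.23 with 5 of 6 below 0; over all tested genes the median was -0.01 and 52.2% were below 0. These counts favour members that differ, since 5 of the 10 with all KO below all WT values passed the detection filter through their 3 WT arrays, 3 of them with no KO array detected and 2 (C1qb and C1qc) with 1. With no filter, all 39 leukocyte-restricted genes had a median of -0.14, with 29 below 0 (50.3% of all genes) and 14 with all KO below all WT values (6.28% of all genes). The members and their classes were chosen with earlier results of these data known, so these shares are a description and not a test.

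**Figure D2:**
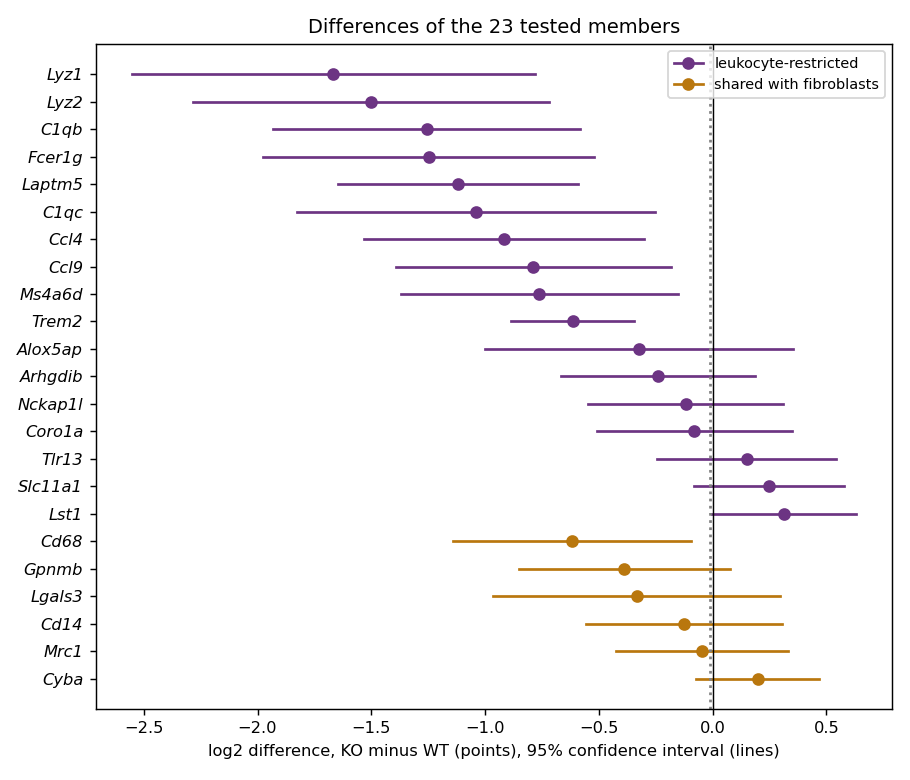
Log2 difference, KO minus WT (points), with its 95% confidence interval from limma (lines) for the 23 tested members, leukocyte-restricted above and shared below; the dotted line is the median of all tested genes (-0.01). Lyz1 (-1.67) and Lyz2 (-1.50) lie farthest to the left, and Lst1 (0.31) is the highest.

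The promoters of 4 members with non-overlapping groups are shown here because they share a short sequence known as the core of sites bound by PU.1, the macrophage transcription factor made from Spi1, and by related Ets factors. Sequences are from RefSeq, build GRCm38.p6, and run from 250 bases before to 50 after the start of the gene. Capitals mark AGGAAGT, which in all 4 lies on the opposite strand and so reads ACTTCCT. Lyz1 is at chr10:117292819-117293118 and Lyz2 at chr10:117282223-117282522, C1qb at chr4:136886151-136886450 and C1qc at chr4:136892865-136893164, all on the minus strand.
Lyz1: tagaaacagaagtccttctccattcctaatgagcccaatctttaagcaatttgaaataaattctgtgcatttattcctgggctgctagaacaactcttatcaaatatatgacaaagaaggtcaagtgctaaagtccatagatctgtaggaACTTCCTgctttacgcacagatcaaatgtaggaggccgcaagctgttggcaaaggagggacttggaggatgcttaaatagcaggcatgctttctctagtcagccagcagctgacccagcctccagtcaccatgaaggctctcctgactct
Lyz2: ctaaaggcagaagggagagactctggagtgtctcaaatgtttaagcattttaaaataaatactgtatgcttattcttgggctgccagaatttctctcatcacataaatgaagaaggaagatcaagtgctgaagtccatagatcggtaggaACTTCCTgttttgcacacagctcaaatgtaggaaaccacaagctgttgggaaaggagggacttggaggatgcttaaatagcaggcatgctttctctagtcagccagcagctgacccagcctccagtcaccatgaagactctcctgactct
C1qb: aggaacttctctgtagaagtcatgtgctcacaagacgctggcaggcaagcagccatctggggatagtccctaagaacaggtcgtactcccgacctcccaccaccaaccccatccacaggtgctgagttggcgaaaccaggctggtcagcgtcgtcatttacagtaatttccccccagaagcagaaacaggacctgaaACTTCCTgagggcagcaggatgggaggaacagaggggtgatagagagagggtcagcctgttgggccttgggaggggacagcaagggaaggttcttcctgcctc
C1qc: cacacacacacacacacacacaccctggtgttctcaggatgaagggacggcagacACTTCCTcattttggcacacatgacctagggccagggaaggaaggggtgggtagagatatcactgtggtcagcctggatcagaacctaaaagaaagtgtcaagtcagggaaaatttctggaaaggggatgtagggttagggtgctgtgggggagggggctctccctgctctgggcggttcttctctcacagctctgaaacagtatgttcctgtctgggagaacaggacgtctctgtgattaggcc
In both lysozyme promoters the match spans positions -100 to -94 from the start, and 201 of their 300 positions are identical without gaps. In C1qb it spans -53 to -47 and in C1qc -195 to -189. Searched on both strands, AGGAAGT was present in 9.35% of all 32851 promoters of this length and in 14 of the 37 promoters held for 32 members. Those promoters belonged to 13 genes. Besides the 4 above they were Arhgdib, Ccl6, Cd53, Ctss, Fcgr1, Mrc1, Ms4a6c, Pld4 and Ptprc, none with all KO below all WT values. Of the 10 members with all KO below all WT values, 8 had a promoter entry and 4 held the motif, the 4 printed here. A match is a string of letters, not a shown binding site, and Spi1 itself was detected on no array.

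Lysozyme, the enzyme that cuts bacterial cell walls and one of the most abundant macrophage products, gave the largest differences. Lyz1 (the LYZ probe) had normalized log2 intensities of 7.13, 7.43 and 8.38 in KO replicates 1 to 3, against 8.70, 9.85 and 9.39 in WT replicates 1 to 3. Every KO culture lay below every WT culture, with KO replicate 3 highest of its group and WT replicate 1 lowest of its own. By limma, KO minus WT was -1.67 on the log2 scale (95% confidence interval -2.55 to -0.78, SE 0.38, adjusted p = 0.441). Lyz2, the form of lysozyme typical of myeloid cells, stood at 5.63, 6.07 and 6.80 in KO, against 7.18, 8.13 and 7.70 in WT cultures, the same order of cultures. The limma difference was -1.50 (95% confidence interval -2.28 to -0.72, SE 0.34, adjusted p = 0.439).

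The lysozyme probes did not all respond. In unnormalized bead intensity the LYZ probe read 252 ± 53.2 in KO and 765 ± 122 in WT cultures (SD, n = 3 each), and the LYZ2 probe 137 ± 16.4 and 292 ± 27.7 (n = 3 each). The brighter of 2 probes under the older name LYZS read 98.2, 94.2 and 109.8 in KO, against 126.3, 126.9 and 119.7 in WT cultures, detected on 1 KO and 3 WT arrays. After normalization its groups overlapped, at 4.66, 4.73 and 5.62 in KO against 5.43, 6.08 and 5.42 in WT cultures, with a log2 difference of -0.64. The other LYZS probe and both probes named LYZ1 were detected on no array. For LYZ the standard error over the beads, which covers technical noise within an array only, was 8.39 to 14.9 units on the KO arrays and 27.8 to 35.9 on the WT arrays. Lyz1 and Lyz2 are neighbouring, closely similar genes and the probe sequences were not used here, so how far the LYZ and LYZ2 probes report 1 gene or both is uncertain.

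**Figure D3:**
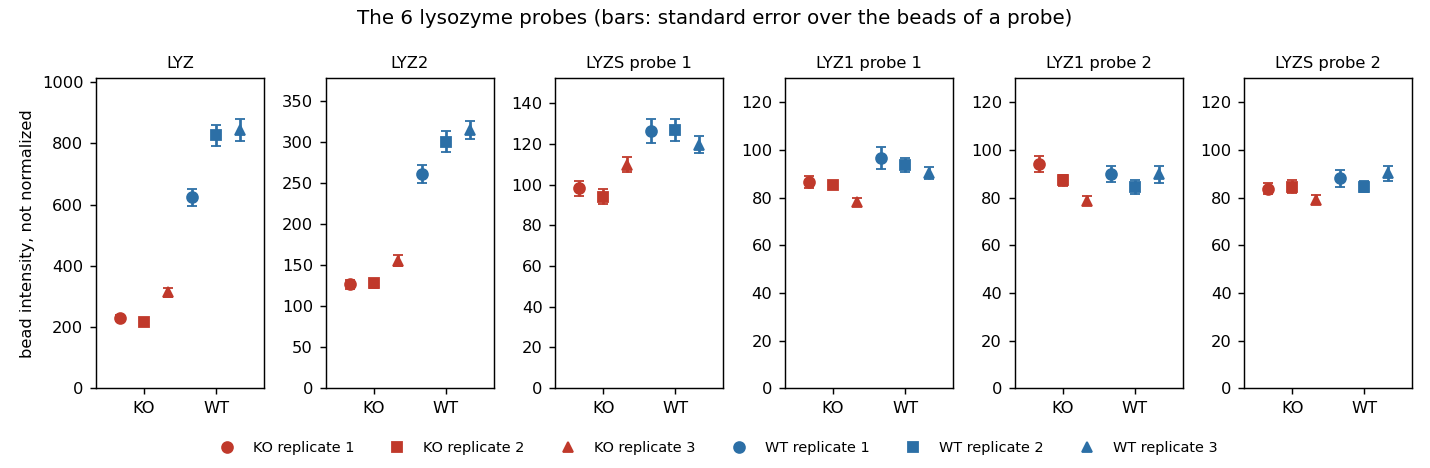
Unnormalized bead intensity (vertical axes, each from 0) of the 6 lysozyme probes on the 3 KO arrays (red, left) and 3 WT arrays (blue, right), with the standard error over the beads of each probe as bars. LYZ, LYZ2 and LYZS probe 1 are lower on all KO than on all WT arrays, and the remaining 3 probes, detected on no array, stay under 100 units.

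Complement C1q, the molecule that tags immune complexes and dying cells for uptake, is built from the products of 3 neighbouring genes. C1qb stood at 4.28, 4.28 and 5.09 in KO, against 5.53, 6.32 and 5.57 in WT cultures. C1qc stood at 4.56, 4.26 and 4.99 in KO, against 5.08, 6.39 and 5.47 in WT cultures. Both were detected on all WT arrays and on KO replicate 3 alone among the KO arrays, so the values of KO replicates 1 and 2 are not above background and the differences rest in part on background readings. The fitted log2 differences were -1.26 (SE 0.29, adjusted p = 0.441 by limma) and -1.04 (SE 0.34, adjusted p = 0.559). Without WT replicate 2 the C1qc difference was -0.67. C1qa, the third chain, was detected on 0 KO and 2 WT arrays and was not tested; its unnormalized intensities were 91.7, 92.3 and 90.3 in KO, against 101, 98.7 and 107 in WT cultures, which do not overlap.

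Receptors and adaptors that turn Fc and lipid binding into phagocytosis were at the edge of detection, and only Fcer1g was detected on every array. Fcer1g, the signalling chain shared by activating Fc receptors, had 4.83, 4.95 and 5.69 in KO, against 5.81, 6.83 and 6.56 in WT cultures. It was detected on all 6 arrays and its groups were close but did not overlap, KO replicate 3 lying just below WT replicate 1. KO replicates 1 and 2 lay close to the lowest detected values of their arrays, 4.81 and 4.87. The difference therefore rests in part on readings near background. The limma difference was -1.25 (95% confidence interval -1.98 to -0.52, SE 0.31, adjusted p = 0.461). Trem2, a lipid-sensing receptor of macrophages and microglia, had 4.33, 4.38 and 4.48 in KO, against 4.92, 5.14 and 4.98 in WT cultures. No KO array detected it, so its fold is a bound: by group means at least 1.15-fold lower in KO (adjusted p = 0.332 by limma). Tyrobp, the adaptor that Trem2 signals through, was detected on 1 WT array only, with unnormalized intensities of 90.5, 88.2 and 84.7 in KO against 100, 98.5 and 98.0 in WT cultures. Fcgr3 was detected on 0 KO and 2 WT arrays; Fcgr1 and all 5 probes of Fcgr2b, the inhibitory Fc receptor, were detected on none.

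Laptm5, a lysosomal membrane protein of haematopoietic cells that dampens receptor signalling, was detected on every array. It stood at 7.34, 6.75 and 7.23 in KO, against 7.89, 8.62 and 8.17 in WT cultures. Here KO replicate 3 did not stand out, and all 3 KO cultures were below all 3 WT cultures. By limma it differed by -1.12 (95% confidence interval -1.65 to -0.59, SE 0.23, adjusted p = 0.382). In unnormalized intensity this was 199 ± 48.2 in KO and 395 ± 12.4 in WT cultures (SD, n = 3 each).

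Among 4 chemokines, the secreted proteins that recruit leukocytes, 2 were tested. Ccl9 had 5.91, 5.70 and 5.20 in KO, against 6.78, 6.48 and 5.92 in WT cultures, with the groups almost touching. Unlike the lysozymes, it was lowest in KO replicate 3 and highest in WT replicate 1. Limma gave -0.79 (SE 0.26, adjusted p = 0.559), and -0.39 without WT replicate 1 and KO replicate 3. Ccl4 had 4.35, 4.74 and 4.41 in KO, against 4.96, 6.02 and 5.28 in WT cultures. No KO array detected it, and by group means it lay at least 1.52-fold lower there (adjusted p = 0.487 by limma). Its second probe, and the probes of Ccl3 and Ccl6, were detected on no array.

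Of 12 surface and adhesion proteins, 4 were tested and 1 had all KO below all WT values (7.83% of all genes). Ms4a6d, a membrane protein of macrophages, had 4.68, 4.52 and 4.70 in KO, against 4.82, 5.95 and 5.42 in WT cultures. WT replicate 1 was nearly level with the KO cultures, none of which detected it. By group means Ms4a6d lay at least 1.5-fold lower in KO (adjusted p = 0.573 by limma), a bound that does not hold for WT replicate 1 alone. Tlr13, a sensor of bacterial ribosomal RNA, ran the other way with overlap, at 5.03, 5.18 and 4.70 in KO against 4.93, 4.95 and 4.57 in WT cultures (difference 0.15, SE 0.17, adjusted p = 0.845). The classical surface markers were mostly silent: Ptprc (CD45, 3 probes), Itgam (CD11b), Cd52 and Ms4a6c were detected on no array, and Adgre1 (F4/80), Cx3cr1 and Cd53 on 1 WT array each. Itgb2 was detected on 1 KO and 1 WT array. Csf1r, the receptor on which macrophage survival depends, was detected on 0 KO and 2 WT arrays.

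**Figure D4:**
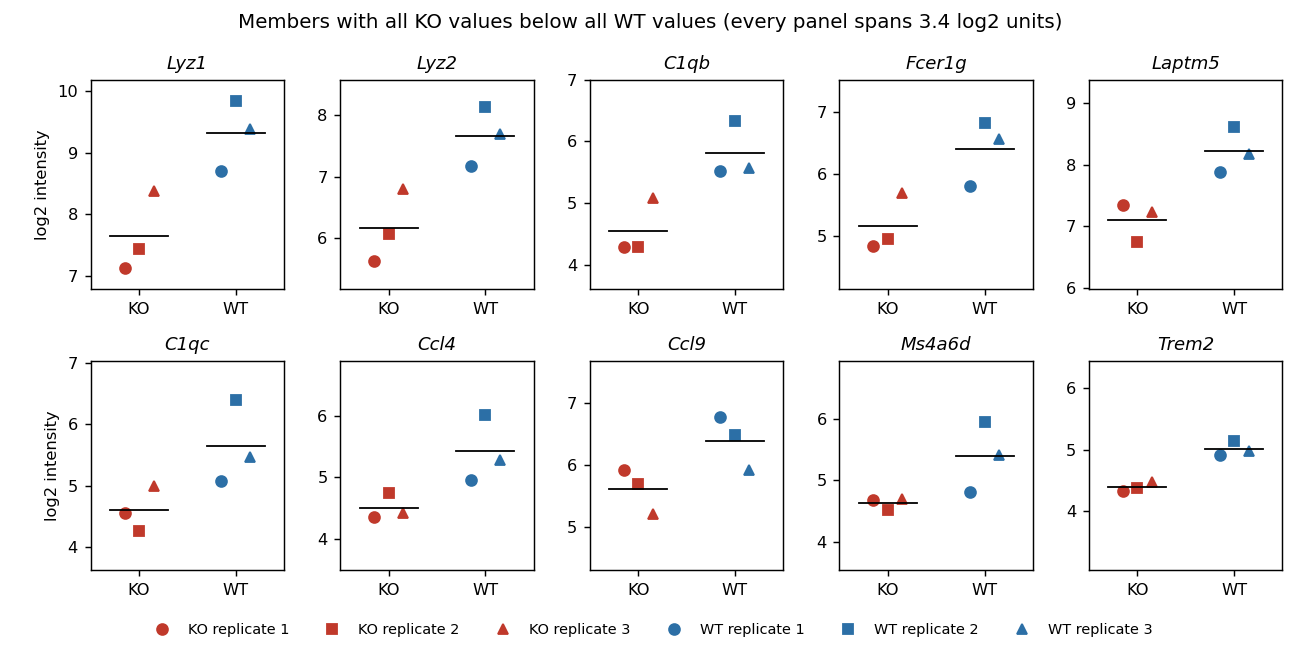
Normalized log2 intensity on each array for the 10 members with all KO values (red, left) below all WT values (blue, right), with the group mean as a black line and each replicate number as its own symbol; every panel spans the same width in log2 units. On these normalized values WT replicate 2 (square) is the highest culture in 9 of the 10 panels, and KO replicate 3 (triangle) is the highest KO culture in 7.

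Within the genotypes, the order of the cultures over these 10 genes was partly shared and depended on normalization. After normalization the highest of all 6 values was in WT replicate 2 for 9 genes and in WT replicate 1 for Ccl9. In unnormalized intensity WT replicate 2 was highest for 4 genes, WT replicate 3 for 4 and WT replicate 1 for 2, while all KO stayed below all WT values for 10 of the 10. Within WT cultures, on normalized values, replicate 1 was the lowest for 9 genes and replicate 3 for Ccl9. Within KO cultures, replicate 3 was the highest for 7 genes, and replicate 1 was the lowest for 6; Laptm5 and Ccl9 were highest in KO replicate 1 and Ccl4 in KO replicate 2. Averaged over the 10 genes, the level was 5.31, 5.31 and 5.70 in KO replicates 1 to 3, against 6.17, 6.97 and 6.45 in WT replicates 1 to 3. The 10 were picked for their order between the genotypes, so the gap between groups is a description. On this average, WT replicates 1 and 2 lay farther apart than KO replicate 3 and WT replicate 1.

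Without WT replicate 1 and KO replicate 3, Lyz1 (-2.34, adjusted p = 0.0411 by limma) and Fcer1g (-1.81, adjusted p = 0.0414) passed, and 0 other members did. Over all 10700 tested genes 5 passed in this setting. KO replicate 3 was the highest KO culture for both genes and WT replicate 1 the lowest WT culture, so leaving them out widened both gaps by construction. The KO values left for Fcer1g, 4.83 and 4.95, were near background. For Lyz1 the adjusted p ranged from 0.0411 to 0.849 over its alternatives and for Fcer1g from 0.0414 to 0.849. Lyz1 also passed under median scaling of the arrays (-1.90, adjusted p = 0.0411 by limma), under which 4 of 10700 genes passed and the all-gene median difference was -0.18. Without both cultures the leukocyte-restricted median was -0.73 and the shared median -0.04.

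The remaining 7 tested leukocyte-restricted genes did not separate the genotypes in this way. Several belong to the actin machinery of blood cells, where 0 of 4 tested genes had all KO below all WT values. Against 7.83% of all genes, so few genes cannot show a lack. By its brighter probe Arhgdib, a regulator of the leukocyte cytoskeleton, read 4941 ± 1703 in KO and 6284 ± 1405 in WT cultures in unnormalized intensity (SD, n = 3 each). Such brightness on all 6 arrays goes against its place among the leukocyte-restricted genes in these cultures. The second probe read only 88.7 to 115.8 units and was detected on 2 KO and 2 WT arrays, so the probes disagree on the level. Log2 values of the brighter probe were 12.46, 12.49 and 11.91 in KO, against 12.48, 12.39 and 12.71 in WT cultures, with overlap (difference -0.24, SE 0.18, adjusted p = 0.772), and the difference was -0.052 without KO replicate 3. Coro1a, which regulates actin turnover in leukocytes, had 5.65, 5.67 and 6.10 in KO, against 5.59, 6.12 and 5.94 in WT cultures (difference -0.08, SE 0.18, adjusted p = 0.931).

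Nckap1l, a subunit of the haematopoietic WAVE complex, had 5.08, 5.0 and 4.63 in KO, against 4.83, 5.34 and 4.90 in WT cultures (difference -0.12, SE 0.18, adjusted p = 0.900). Lst1, a small leukocyte protein of the major histocompatibility region, had 5.70, 5.69 and 5.86 in KO, against 5.49, 5.22 and 5.60 in WT cultures. It was the 1 leukocyte-restricted gene with all KO above all WT values, 0.31 higher in limma's fit (SE 0.14, adjusted p = 0.626). Aif1, the calcium-binding marker also called IBA1, was detected on 1 KO and 0 WT arrays by any of its 3 probes.

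Slc11a1, the metal transporter of the phagosome, was bright by 1 of its 4 probes and at background by the rest. The bright probe had log2 values of 8.63, 8.46 and 8.86 in KO, against 8.30, 8.35 and 8.55 in WT cultures, with overlap (difference 0.25, SE 0.14, adjusted p = 0.687). Of the other 3 probes, 1 was detected on 1 WT array and 2 on none, so the probes disagree on whether the gene is expressed at all. Alox5ap, the helper protein of leukotriene synthesis, had 4.78, 5.21 and 5.89 in KO, against 5.39, 5.99 and 5.46 in WT cultures. KO replicate 3 was above 2 of the WT cultures (difference -0.32, SE 0.29, adjusted p = 0.817), and with 1 array left out the difference ran from -0.62 without KO replicate 3 to -0.064 without KO replicate 1. Pld4, a lysosomal nuclease of myeloid cells, was detected on no array.

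Among the shared genes, 5 of 7 were detected on all 6 arrays, and none of the 6 tested had all KO below all WT values. That order held for 7.83% of all genes, so 6 genes are too few to show a lack of it. Lgals3, the sugar-binding protein galectin-3, had log2 values of 12.71, 12.55 and 11.61 in KO, against 12.68, 12.62 and 12.58 in WT cultures. KO replicate 3 alone was low, and the difference of -0.33 (SE 0.27, adjusted p = 0.784) was 0.0054 without it. Gpnmb, a glycoprotein of lysosomes, had 12.35, 11.72 and 11.65 in KO, against 12.17, 12.45 and 12.27 in WT cultures. KO replicate 1 lay among the WT cultures and the other KO cultures below them (difference -0.39, SE 0.20, adjusted p = 0.658), and the other 3 Gpnmb probes gave -0.59, -0.49 and -0.31. The probes at -0.49 and -0.31 had all KO below all WT values, the second of them being detected on 0 KO and 3 WT arrays, so the overlap depends on the probe.

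Cd68, a lysosomal glycoprotein widely used to stain macrophages, had 5.54, 5.86 and 5.10 in KO, against 5.81, 6.38 and 6.17 in WT cultures. The groups overlapped through KO replicate 2 and WT replicate 1, and its difference of -0.62 (SE 0.22, adjusted p = 0.578 by limma) was the largest among the shared genes. Cd14, the lipopolysaccharide co-receptor, had 6.20, 6.18 and 5.58 in KO, against 6.23, 6.03 and 6.09 in WT cultures (difference -0.13, SE 0.18, adjusted p = 0.895), and 0.08 without KO replicate 3. Mrc1, the mannose receptor, was near background at 4.48, 4.96 and 4.62 in KO, against 4.53, 4.81 and 4.86 in WT cultures (difference -0.05, SE 0.16, adjusted p = 0.963). Ctss, a cathepsin of antigen-presenting cells, was detected on 1 WT array only.

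The NADPH oxidase divided by where its subunits are made. Cyba, the membrane subunit p22phox that many cell types express, had 11.92, 12.17 and 12.13 in KO, against 11.88, 11.84 and 11.92 in WT cultures. All KO values were above all WT values by a small margin (difference 0.20, SE 0.12, adjusted p = 0.697 by limma). The phagocyte subunits Cybb, Ncf1 and Ncf4 were detected on no array by any of their 5 probes.

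**Figure D5:**
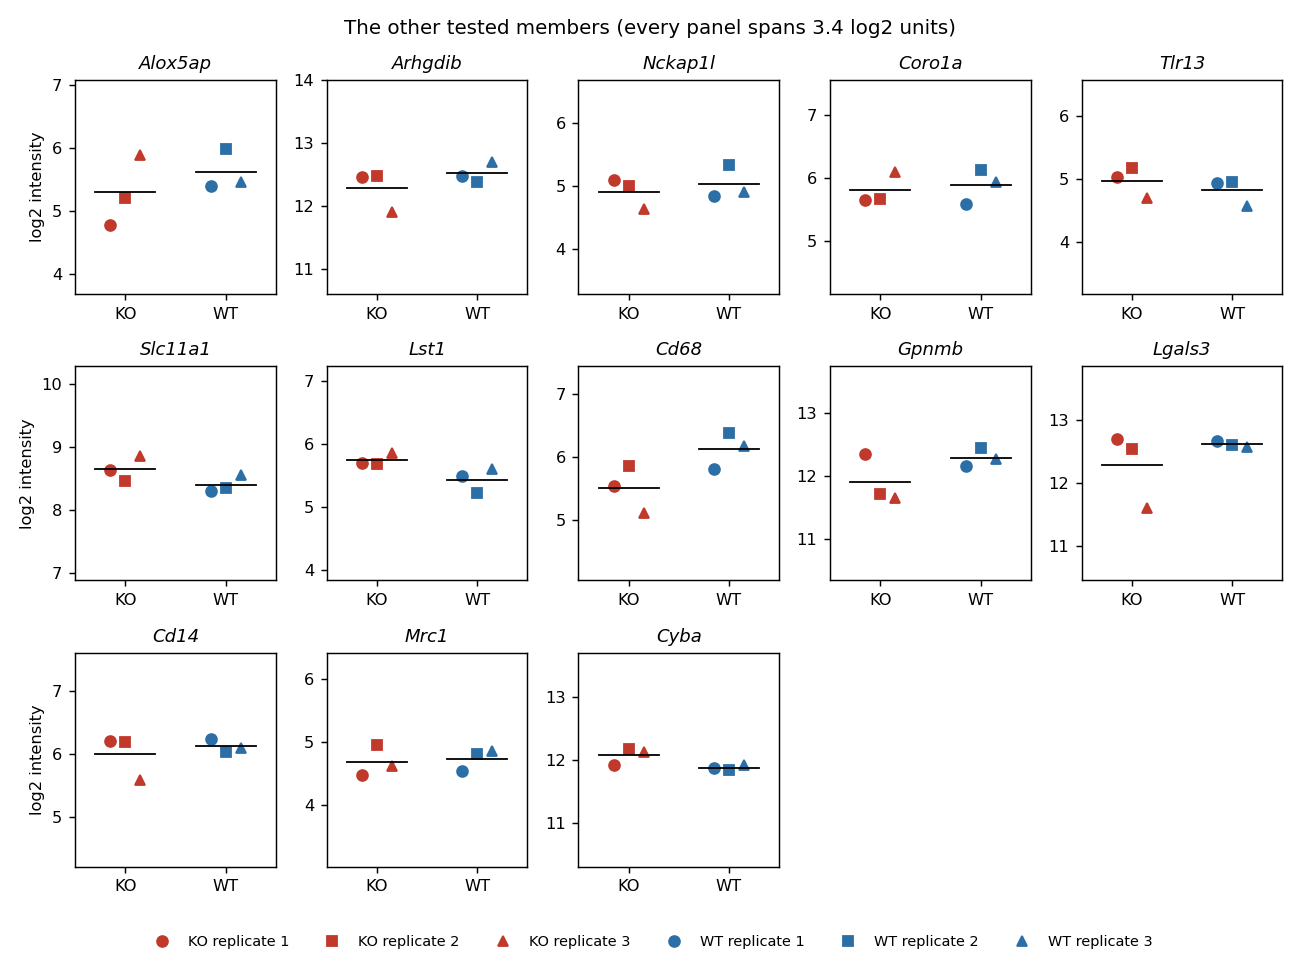
Normalized log2 intensity on each array for the 13 tested members outside the group of 10, KO (red, left) and WT (blue, right), with group means as black lines and the same width in log2 units in every panel. The genotypes overlap except for Lst1 and Cyba, where all KO values are above all WT values, and KO replicate 3 (triangle) is the lowest culture for Arhgdib, Lgals3, Cd68, Gpnmb, Cd14 and Nckap1l.

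In total 23 members were not tested. Of these, 13 were detected on no array, all of them leukocyte-restricted. The other 10 were detected on 1 or 2 arrays, 8 on more WT than KO arrays, Aif1 on more KO than WT arrays and Itgb2 on equally many. Their differences without a filter ran from -0.36 (Csf1r) to 0.19 (Ptprc), with a median of -0.04, and 16 of 23 were below 0; most are differences between background readings.

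A list of other macrophage genes, none of them in the set, was examined for the same comparison. It too was chosen with earlier results of these data known. Of 61 on the array, 35 were detected on no array and 14 were tested. Those detected numbered 11, 10 and 12 on KO replicates 1 to 3, against 12, 19 and 21 on WT replicates 1 to 3. WT replicate 1 was thus level with KO replicate 3, unlike for the leukocyte-restricted genes of the set. Of the 14, 0 passed over all genes, 12 were below 0 and 4 had all KO below all WT values, with a median difference of -0.19; over all tested genes 52.2% were below 0 and 7.83% had all KO below all WT values. Ms4a7, a macrophage relative of Ms4a6d, had 4.64, 4.34 and 4.65 in KO, against 5.49, 5.60 and 5.30 in WT cultures. Detected on 0 KO and 3 WT arrays, it was tested through the WT arrays alone, and by group means lay at least 1.57-fold lower in KO (adjusted p = 0.199 by limma). Bcl2a1b, a survival protein of leukocytes detected on 1 KO and 3 WT arrays, had a difference of -0.44 (SE 0.13, adjusted p = 0.487), and Sirpa, a receptor for the CD47 signal that is not confined to macrophages, -0.52 (SE 0.16, adjusted p = 0.532). Among the tested genes Slamf9 (0.41) and Rgs10 (0.04) were above 0. Of the 12 listed genes that were detected but not tested, 9 were found on more WT than KO arrays, among them Vav1 and Cd84 on 0 KO and 2 WT arrays, and 2 on more KO than WT arrays.

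Genes that feed or attract macrophages did not follow 1 direction. Of 14 genes of the macrophage growth factor and recruitment axis, 6 were tested and 0 passed, with 3 below 0 and a median difference of 0.21. Csf1, the main macrophage growth factor and a fibroblast product, had a difference of -0.24 (adjusted p = 0.876 by limma). Ccl7, a monocyte-attracting chemokine, had 10.40, 10.13 and 11.07 in KO, against 9.11, 9.16 and 9.60 in WT cultures, without overlap (difference 1.24, SE 0.25, adjusted p = 0.383). Ccl2, its close relative, had a difference of 0.65 (SE 0.27, adjusted p = 0.620) and Csf2ra one of 0.48 (SE 0.22, adjusted p = 0.629). Ccr1 and Ccr2, receptors for these chemokines on monocytes, were detected on no array. Of 16 Toll-like receptor and inflammatory genes, 5 were tested, 4 were below 0 and 0 passed, with a median of -0.18; Tlr6 (-0.21), Tlr4 (-0.20) and Myd88 (-0.12) had the smallest p.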

How the data were processed

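Biotinylated RNA of 3 KO and 3 WT cultures was read on Illumina MouseWG-6 arrays in 1 colour, per the labels' protocols. The authors deposited mean bead intensities, exported with GenomeStudio version 1.6.0 without normalization, with a detection fraction per probe (1 is detected; 1 minus it served as detection p), per the file headers; 24 of the table's 48 value columns were not used. The submitters' processing notes name lumi, and the normalized values they deposited are used as a score, since the sources used here do not state their log base; the series matrix holds the same values.

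The deposited intensities were put through neqc (limma version 3.58.1, R version 4.3.3, offset 16), which corrects background from the detection p, normalizes by quantiles and takes log2. Probes with detection p under 0.05 on at least 3 arrays were kept (18221), named through a GRCm38.p6 gene table (90.6% named), and the brightest per gene was tested (10700 genes) with lmFit and eBayes, two-sided, Benjamini-Hochberg over all genes, threshold 0.05. The model was also run on simulated data with the same spread for every gene and no background floor, which cannot speak for the dim members. A fold against a group with no detected array is a bound: the detected group's mean over the undetected group's, with each undetected value raised to that array's lowest detected one. The bound covers background in the undetected group only, not the spread between cultures. Intensities carry a bead standard error of 2.41% to 8.47% for the tested members (median 3.94%), and the number of arrays limits precision. The cultures came from separate embryos, per the series design. Alternatives covered background, normalization, filter, probe rule, variance model, replicate block, left-out arrays and threshold.

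The members, the leukocyte-restricted and shared classes, and the gene lists were chosen with earlier results of these data known. Every tested member is named with its values, and of each other list up to 3 genes with the smallest p; further genes were named after their values were seen.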

Additional observations from a re-analysis of the deposited data

How the results depend on the processing

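The member count past the threshold, 0 with the main processing (11 at an unadjusted p under 0.05 by limma), was 1 under median scaling and 2 without WT replicate 1 and KO replicate 3, and 0 under the other alternatives run. All genes past the threshold numbered 5, against 3 with normexp at offset 50, 2 without background correction, 2 in the submitters' normalized values, 3 without a filter, 8 among single probes, 9 with array weights, 2 with the replicate block and 1 to 4 with 1 array left out. They numbered 4 under median scaling and 5 without WT replicate 1 and KO replicate 3. The leukocyte-restricted median of -0.76 was -0.36 with normexp, -0.27 without background correction, -0.20 in the submitters' values, -0.33 with detection on 1 array enough and -0.14 without a filter; with 1 array left out it ran from -0.78 to -0.55. The count of them below 0 was 14 of 17, against 22 of 26, 9 of 11 at detection p under 0.01 and 29 of 39 without a filter, as fewer or more genes entered. The shared median of -0.23 was -0.04 without WT replicate 1 and KO replicate 3, and ran from -0.39 to -0.0049 with 1 array left out, the end near 0 being without KO replicate 3. At detection p under 0.01, member probes detected numbered 16, 14 and 18 in KO replicates 1 to 3, against 20, 25 and 25 in WT replicates 1 to 3.

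Of the 23 tested members, 18 kept their sign under each alternative run, 14 below 0 and 4 above. The other 5 were Cd14, Coro1a, Lgals3, Mrc1 and Nckap1l. Without WT replicate 1 and KO replicate 3, Cd14 was 0.14, Lgals3 0.033 and Coro1a -0.37; with array weights, Mrc1 was 0.14 and Nckap1l 0.015. With 1 array left out, Cd14 ran from -0.23 to 0.08, Coro1a from -0.23 to 0.039, Lgals3 from -0.54 to 0.0054, Mrc1 from -0.18 to 0.057 and Nckap1l from -0.21 to 0.039. Causes were not tested. Same-numbered KO and WT cultures had correlations of their deviations of 0.23, -0.18 and -0.20. With 3 cultures per group these values cannot decide whether the cultures were paired. The replicate block called 0 members, as did the main fit, so that count does not decide it either. Dim members are limited by signal over background: their fitted differences shrink without background correction.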

Other observations

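Markers of other blood and vessel cells were read on the same arrays. Of 9 osteoclast genes, a cell type of the same lineage, 4 were tested and 0 passed, with 2 below 0 and a median difference of 0.36. Ctsk, the collagen-degrading cathepsin that fibroblasts also make, had 9.86, 9.91 and 11.14 in KO, against 8.93, 9.72 and 9.31 in WT cultures (difference 0.99, SE 0.36, adjusted p = 0.578 by limma). Mmp9, a gelatinase, had 6.00, 6.09 and 8.56 in KO, against 5.28, 5.36 and 5.89 in WT cultures, KO replicate 3 far above the rest (difference 1.37, SE 0.63, adjusted p = 0.635). Oscar, an activating receptor of the lineage, had all KO below all WT values at a difference of -0.27 (SE 0.12, adjusted p = 0.629).

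Of 8 neutrophil genes on the array 0 were tested and 5 were detected nowhere. Of 8 mast cell genes 1 was tested, Kit (-0.23, adjusted p = 0.752 by limma). Of 11 lymphocyte genes 4 were tested with a median of 0.27 and 0 passed; Cd3g (0.46), Cd3e (0.27) and Klrb1c (0.27) had the smallest p. Of 12 megakaryocyte and erythroid genes 2 were tested and 0 passed, Ppbp (0.39) and Itga2b (0.01). Of 12 endothelial genes 6 were tested and 0 passed, with a median of 0.10; Flt1 (0.63, SE 0.22) had all KO above and Eng (-0.59, SE 0.23) all KO below all WT values, and Emcn stood at 1.03 (SE 0.58). Among fibroblast markers the smallest p were those of Col6a1 (-0.52, SE 0.16, adjusted p = 0.520), Pdgfra (-0.94, SE 0.34, adjusted p = 0.578) and Mmp2 (-0.20, SE 0.12, adjusted p = 0.710).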
